A study of Homo sapiens with 12 samples.

Results

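The 41 lysosome and autophagy genes described here were taken from a list of gene symbols. They comprised 6 genes of the lysosomal membrane, 6 proteases, 5 glycosidases, 4 genes of lipid handling, 6 subunits of the lysosomal proton pump, 2 transcription factors, 5 genes of autophagy initiation, 5 genes of the ATG8 proteins and their conjugation, and the pair SQSTM1 and DRAM1. All 41 were found among the 16676 genes of the deposited table, by Ensembl identifier through GENCODE v29. All 41 also passed the filter on low values, as did 15256 genes in the whole table. HCT116, a human colon carcinoma line that carries wild-type p53, was profiled by stranded sequencing of total RNA in 12 libraries. Cells that over-express the long non-coding RNA SPARCLE (OE), cells knocked out for it (KO) and wild-type cells (WT) were each exposed to 1 µM doxorubicin for 48 h or kept for that time in medium without it (control), with 2 replicates in each of the 6 groups. The anthracycline doxorubicin poisons topoisomerase II and thereby leaves breaks in both DNA strands. The design calls the replicates biological, but the labels name no clones and do not say how the knockout or the over-expression was made, so the p-values of comparisons with WT cover no more than the spread of these replicate libraries. In such bulk libraries, fewer cells of a kind and less RNA per cell cannot be told apart.

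Lysosomes are acidic compartments in which hydrolases break down proteins, glycans and lipids, and the acid is made by the V-ATPase, a proton pump of a membrane sector (V0) and a cytosolic sector (V1). In macroautophagy a double membrane grows around cargo under the control of the ULK1 kinase and the Beclin 1 lipid kinase complex, is coated with lipid-linked ATG8 proteins such as LC3 and GABARAP, and then fuses with the lysosome. Many genes of this system carry a palindromic E-box, the CLEAR motif, that is bound by TFEB and TFE3, while DRAM1 is known as a lysosomal membrane protein gene that p53 induces.

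The promoters that hold the core of that motif are shown first, because they are the members whose sequence matches the known TFEB and TFE3 site. The RefSeq promoter table (build GRCh38.p14, 250 bases before to 50 bases after each start) held 32 of the 41 members. LAMP2, CTSB, HEXA, PSAP, ASAH1, ATP6V1A, ATP6V1B2, ATP6V1H and UVRAG had no entry. Both strands were searched for CACGTG and for TCACGTGA, which contains it. CACGTG occurred in 7 of 32 member promoters (21.9%) and in 7.43% of all 27305 promoters. The longer TCACGTGA occurred in 4 (12.5%) and in 1.04% of all. Because the motif is known from genes of this system, a higher share among the members is not an independent result. In the sequences below, 5′ to 3′ on the gene's strand, capitals mark TCACGTGA.
ATP6V0D1: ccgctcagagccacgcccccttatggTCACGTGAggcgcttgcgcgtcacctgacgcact
CTSA: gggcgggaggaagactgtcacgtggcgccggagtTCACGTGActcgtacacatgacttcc
LAMP1: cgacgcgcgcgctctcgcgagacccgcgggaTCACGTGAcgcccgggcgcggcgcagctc
MCOLN1: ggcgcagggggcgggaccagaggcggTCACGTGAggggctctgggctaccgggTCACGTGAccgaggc
The stretches lie at chr16:67481184-67481243 on the minus strand (ATP6V0D1), chr20:45891275-45891334 on the plus strand (CTSA), chr13:113297179-113297238 on the plus strand (LAMP1) and chr19:7522556-7522623 on the plus strand (MCOLN1). The motif began 60 bases before the start of ATP6V0D1, 26 before that of CTSA and 29 before that of LAMP1. MCOLN1 carried it at 42 and again at 15 bases before the start. These starts are those of RefSeq. The GENCODE v29 genes of ATP6V0D1 and CTSA begin further upstream, so by those coordinates their motifs lie within the gene. CD63, CTSD and NEU1 held CACGTG without the outer bases. Of the 4 genes shown, ATP6V0D1 and MCOLN1 rose with doxorubicin, and LAMP1 and CTSA did not pass the test; their values follow under their roles. A match is a description of these letters and not a measured binding site.

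The reads on listed genes, recovered from the deposited values, ranged from 24893610 to 30690664 per library with doxorubicin and from 12599392 to 18570797 in control medium, so depth and treatment cannot be told apart. No member had fewer than 45 reads in any library. The share of small RNA genes in all TPM (a transcript level scaled by gene length and library total) was 66.1 to 75.8% with doxorubicin and 64.8 to 71.6% in control medium, and the median gene of single libraries stood between -0.26 and 0.22 log2 units from the middle of the 12. Replicate a lay above replicate b in 38 of 41 members in OE doxorubicin cells, where the median of all genes was also 0.45 log2 units higher in a. CDKN1A, the p53 target used to check the treatment, was higher by 3.05 in WT, 2.91 in KO and 2.96 in OE log2 units with doxorubicin. SPARCLE had 430 and 487 reads in OE doxorubicin and 384 and 622 in OE control libraries, against 0 to 4 in KO and in WT libraries, so its reads do not separate KO from WT. Of 12 epithelial markers 11 were listed and their summed level was 2840 to 3480 TPM with doxorubicin and 1170 to 2420 TPM in control medium, although VIL1 did not exceed 0.987 TPM. Of 12 leukocyte and macrophage markers 5 were listed, at a summed 8.56 to 22.1 TPM with doxorubicin and 20.5 to 55.2 TPM in control medium. Over all libraries CD68 ranged from 3.83 to 43.9 TPM and HLA-DRA from 4.01 to 12.1 TPM. CSF1R, ITGAM and CD74 did not exceed 1 TPM. PTPRC, CD3E, MS4A1, CD14, LYZ and TYROBP were among the markers with no row in the table used here. Of 12 mesenchymal markers 5 were listed, at 9.66 to 22.7 and 7.49 to 13.1 TPM with doxorubicin and in control medium. The part of these shifts in the results was not tested.

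Doxorubicin moved the 41 genes both ways. Averaged over WT, KO and OE cells (6 doxorubicin against 6 control libraries), 12 members rose and 14 fell, and 15 did not pass the test. KO and OE libraries of the same letter deviated alike (last paragraph), so the 6 libraries a side are not shown to be independent. Differences are given as doxorubicin minus control on the log2(TPM + 1) scale, which understates the change of low genes, and a call needed an adjusted p under 0.05 from limma (Benjamini-Hochberg, over all genes tested). The 26 called members are 63.4% of 41, close to the 58.0% called among all 15256 genes. By direction, 32.2% of all genes were called higher and 25.9% lower. In WT cells alone 6 members rose and 8 fell (34.1% called, against 32.2% of all genes, of which 19.6% higher and 12.6% lower). In KO cells 2 rose and 8 fell (24.4%, against 24.2% of all genes, 9.90% higher and 14.3% lower), and in OE cells 3 rose and 6 fell (22%, against 23.0% of all genes, 12.4% higher and 10.6% lower). The share called was thus near the background in each comparison. The median member differed by -0.10 in the average, by 0.02 in WT, by -0.04 in KO and by -0.13 in OE cells, and the median of all genes by 0.09, 0.17, -0.01 and 0.11 in that order. Scaling the libraries by median ratios brought the WT median of all genes to -0.01 and changed the split of called members to 7 higher and 13 lower in WT, 6 and 10 in KO, 6 and 15 in OE, and 11 and 18 in the average. Leaving out the small RNA genes gave 9 higher and 10 lower in WT, 12 higher and 9 lower in KO, 10 higher and 9 lower in OE, and 15 higher and 14 lower in the average. The share of all genes called was not counted under either setting, so these splits cannot be set against a background.

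**Figure D1:**
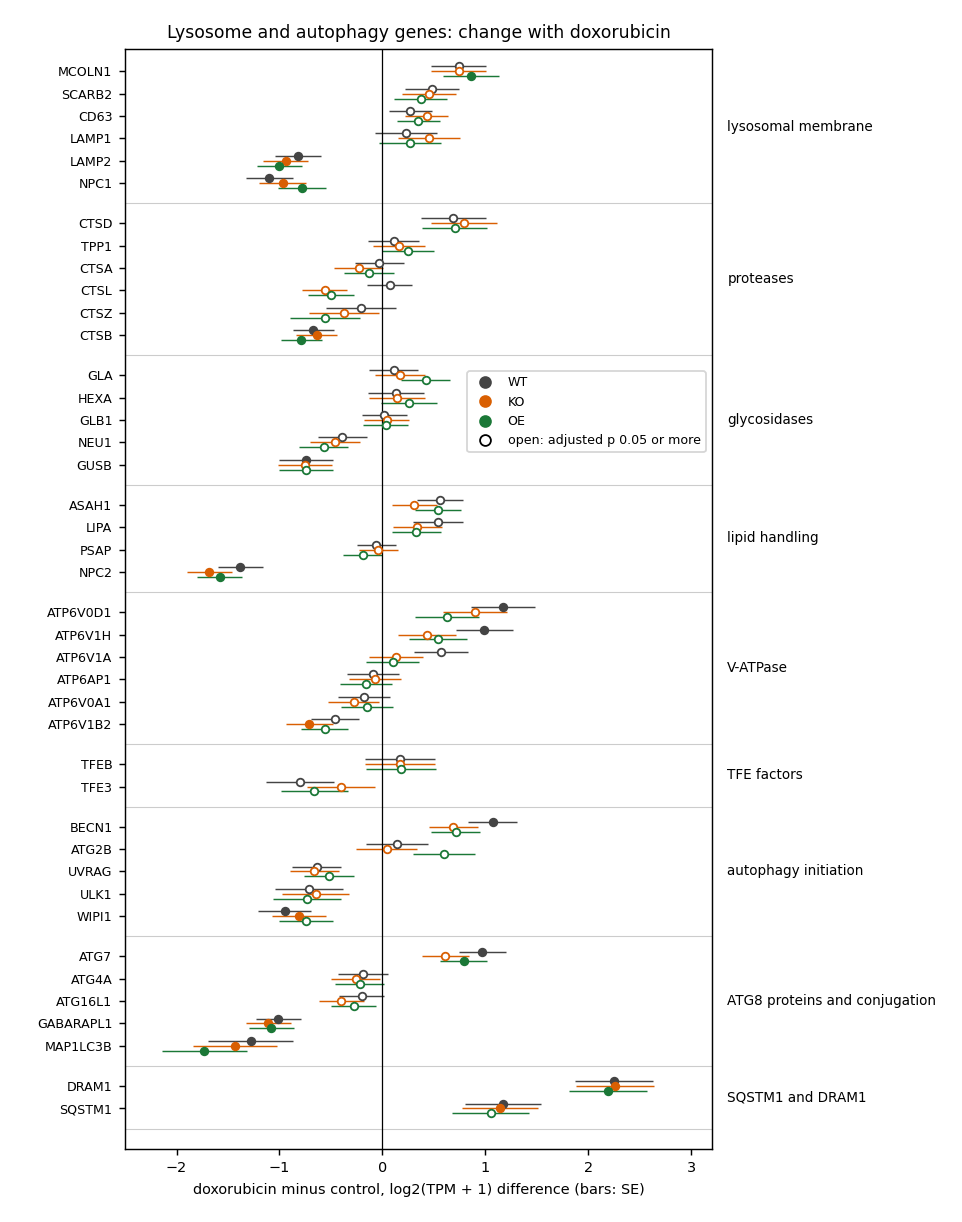
Difference of each of the 41 members between doxorubicin and control (x axis, log2(TPM + 1) units; bars are the standard error) in WT, KO and OE cells, grouped by role, with filled points for an adjusted p under 0.05. DRAM1 stands near 2.2 in each line, and NPC2, MAP1LC3B and GABARAPL1 lie at -1.01 or below in each.

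The averaged differences of the members had quartiles of -0.61 and 0.40, against -0.40 and 0.56 for all genes, and the median absolute difference was 0.47 against 0.49. A difference of at least 1 log2 unit either way was reached by 5 members (12.2%) and by 17.7% of all genes. In 7 members all 6 doxorubicin libraries lay above all 6 control libraries, and in 9 all 6 lay below, whereas 15.7% of all genes lay wholly above and 16.3% wholly below. Called in the same direction in WT, KO and OE cells each were 7 members: DRAM1, which rose, and LAMP2, NPC1, CTSB, NPC2, MAP1LC3B and GABARAPL1, which fell. Among all genes 8.30% rose and 8.31% fell in each of the 3 lines.

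**Figure D2:**
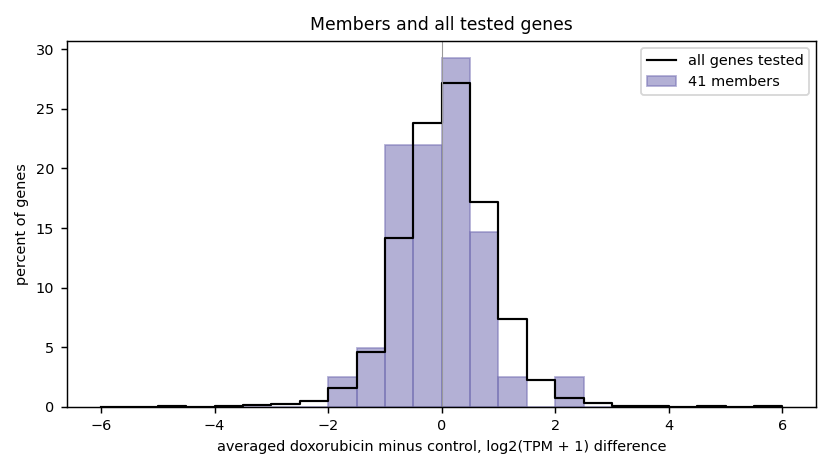
Distribution of the averaged doxorubicin minus control difference (x axis, log2(TPM + 1) units; y axis, percent of genes) for the 41 members (shaded) and for all 15256 genes tested (line). The members have a median of -0.10 and all genes one of 0.09, and both distributions reach to either side of 0.

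DRAM1 and SQSTM1 were the members that rose most. DRAM1 (chr12:101877351-102012130), the p53-induced lysosomal membrane protein gene, had 32.9 and 26.8 TPM in WT, 44.9 and 27.6 TPM in KO and 41.4 and 18.8 TPM in OE doxorubicin libraries, against 4.57 and 6.50 TPM in WT, 8.88 and 4.80 TPM in KO and 6.56 and 4.31 TPM in OE control libraries. The lowest doxorubicin library thus stood above the highest control library. The difference was 2.23 ± 0.22 (SE) in the average (limma, adjusted p = 5.91e-06), with 2.25 in WT, 2.26 in KO and 2.19 in OE cells, and it was called in each line. SQSTM1 (chr5:179806398-179838078) encodes p62, the receptor that binds ubiquitinated cargo and LC3 and is itself degraded by autophagy. It had 118 and 131 TPM in WT, 176 and 90.7 TPM in KO and 171 and 73.5 TPM in OE doxorubicin libraries, against 52.5 and 56.4 TPM in WT, 69.2 and 46.6 TPM in KO and 61.3 and 46.7 TPM in OE control libraries. Here too the groups did not overlap, but replicate b of the KO and OE doxorubicin groups lay far below replicate a. SQSTM1 differed by 1.12 ± 0.21 in the average (limma, adjusted p = 0.000718) and was called in WT (1.17, adjusted p = 0.0292) and KO cells (1.14, adjusted p = 0.0414), while OE cells gave 1.05 with an adjusted p of 0.057. The WT call was lost when any 1 of the 4 WT libraries was left out (limma, adjusted p up to 0.135), and the KO call without KO control b or KO doxorubicin a (up to 0.283). Exons of SQSTM1 share 20.7% of their bases with the opposite-strand gene MRNIP, and the strand setting of the counting is not given in the sources used here, so its level is uncertain to that extent.

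The RNA of the ATG8 genes MAP1LC3B and GABARAPL1 fell, and that of ATG7 rose. MAP1LC3B (chr16:87383995-87404779), which encodes LC3B, had 11.1 and 15.6 TPM in WT, 11.0 and 20.4 TPM in KO and 10.3 and 12.6 TPM in OE doxorubicin libraries, against 33.9 and 32.8 TPM in WT, 26.0 and 67.7 TPM in KO and 29.5 and 54.3 TPM in OE control libraries. No doxorubicin library reached the lowest control library, and replicate b of the KO and OE controls stood far above replicate a. The difference was -1.48 ± 0.24 in the average (limma, adjusted p = 0.000215), with -1.28 in WT, -1.43 in KO and -1.73 in OE cells, each called. In KO cells the difference was between -2.10 and -0.75 over the alternatives, with adjusted p-values of up to 0.27, and the call was lost without KO control replicate b or KO doxorubicin replicate a, and also with median-ratio scaling, with voom and without small RNA genes. The WT call was lost without any 1 of the 4 WT libraries (limma, adjusted p up to 0.183), and the OE call without OE control b or OE doxorubicin a (up to 0.124). GABARAPL1 (chr12:10212458-10223130), an ATG8 protein of the GABARAP branch, had 16.6 and 15.6 TPM in WT, 16.7 and 19.3 TPM in KO and 15.8 and 14.2 TPM in OE doxorubicin libraries, against 36.8 and 30.6 TPM in WT, 34.1 and 46.5 TPM in KO and 32.8 and 32.9 TPM in OE control libraries. These groups lay well apart in every line. GABARAPL1 differed by -1.07 ± 0.12 in the average (limma, adjusted p = 2.01e-05), and by -1.01, -1.11 and -1.08 in WT, KO and OE cells, each called. Leaving out WT control a or KO control b brought the adjusted p of that line to 0.0572 and 0.0569. Both genes have near-identical copies (MAP1LC3B2 and GABARAPL3) with which the counting may have split or shared reads.

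ATG7 (chr3:11272309-11557665), the E1-like enzyme that activates ATG8 proteins and ATG12, rose. It had 6.74 and 6.76 TPM in WT, 7.14 and 6.85 TPM in KO and 6.94 and 6.31 TPM in OE doxorubicin libraries, against 3.14 and 2.79 TPM in WT, 4.24 and 4.24 TPM in KO and 3.22 and 3.63 TPM in OE control libraries. The replicates were close together and the treatments did not overlap. ATG7 differed by 0.79 ± 0.13 in the average (limma, adjusted p = 0.000292) and was called in WT (0.97) and OE cells (0.79), with 0.61 in KO cells (adjusted p = 0.0706). The OE call was lost without either OE control or without OE doxorubicin a (limma, adjusted p up to 0.152). Of its exon bases 18.1% are shared with VGLL4 on the opposite strand. ATG4A, a protease that processes ATG8 precursors, had 12.2 to 17.2 TPM with doxorubicin and 12.9 to 18.7 TPM in control medium, and ATG16L1, which directs the lipidation to the growing membrane, had 14.1 to 19.1 and 17.5 to 24.2 TPM. Neither passed the test, with averaged differences of -0.22 (95% interval -0.53 to 0.08) for ATG4A and -0.29 (-0.57 to -0.02; limma, adjusted p = 0.0622) for ATG16L1.

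**Figure D3:**
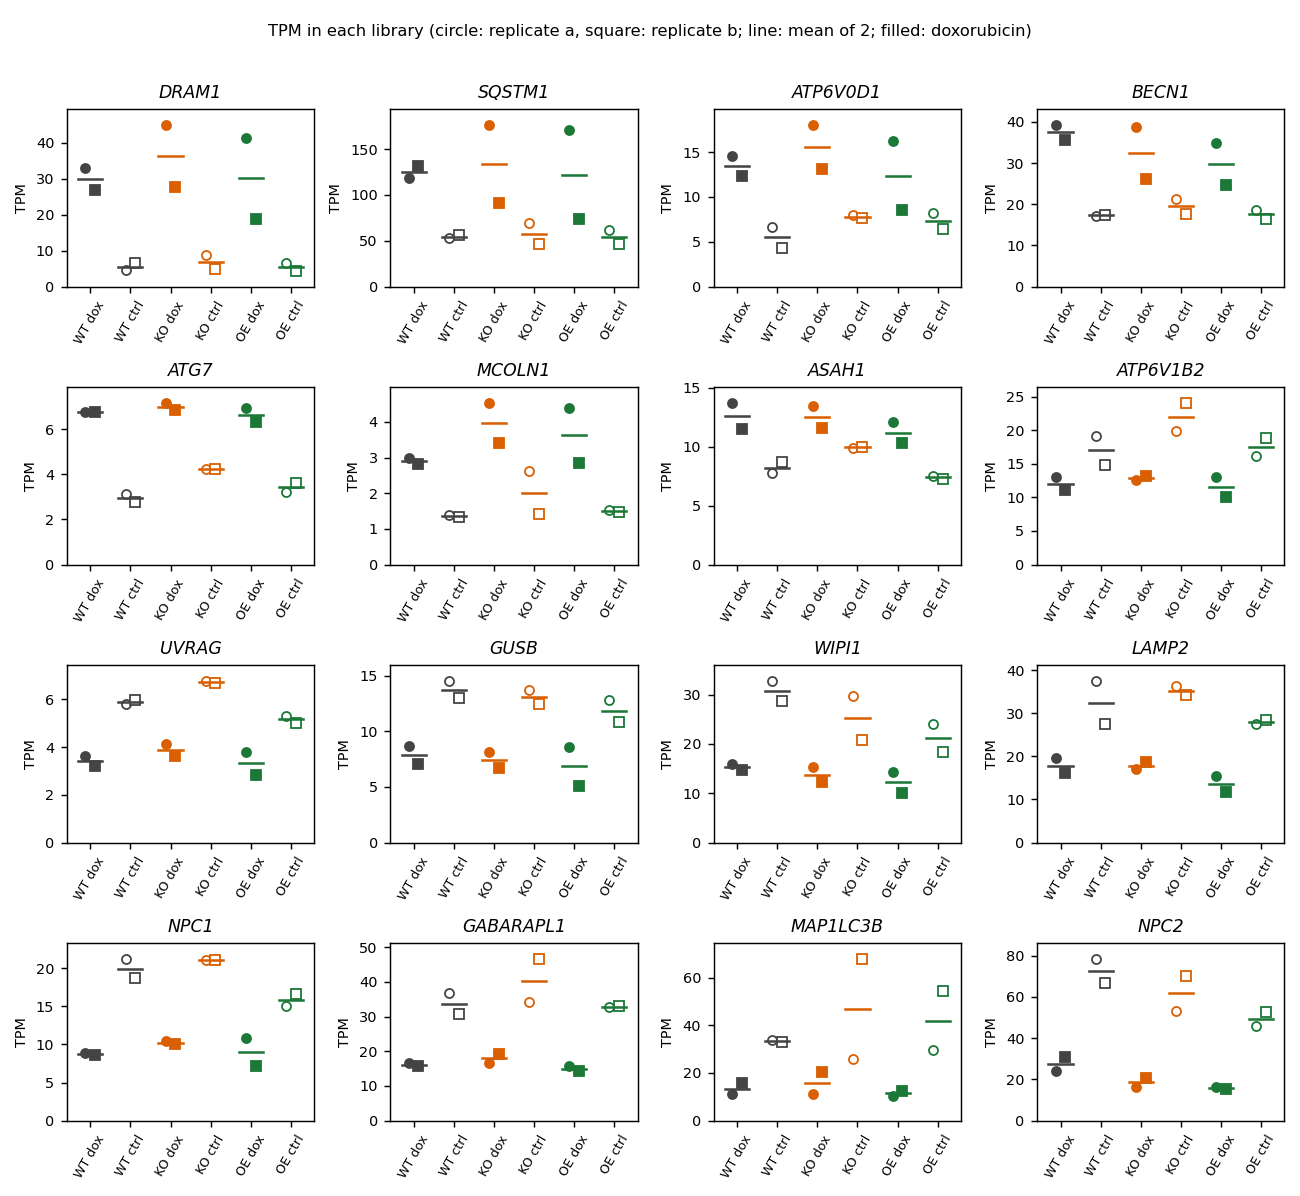
TPM (y axis, from 0) in each library for the 16 members whose 6 doxorubicin libraries (filled) and 6 control libraries (open) did not overlap, ordered from the largest rise to the largest fall; circles are replicate a, squares replicate b and lines the mean of 2. DRAM1 leads with 18.8 to 44.9 TPM with doxorubicin over 4.31 to 8.88 TPM in control medium, and NPC2 closes with 15.4 to 30.6 TPM under 45.9 to 78.2 TPM.

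Among the genes of autophagy initiation, BECN1 rose and WIPI1, UVRAG and ULK1 fell. BECN1 (chr17:42810134-42833350) encodes Beclin 1, the scaffold of the class III phosphatidylinositol 3-kinase complex. It had 39.2 and 35.7 TPM in WT, 38.8 and 26.2 TPM in KO and 34.8 and 24.6 TPM in OE doxorubicin libraries, against 17.2 and 17.4 TPM in WT, 21.3 and 17.7 TPM in KO and 18.6 and 16.5 TPM in OE control libraries. All doxorubicin libraries were above all controls. The difference was 0.82 ± 0.14 in the average (limma, adjusted p = 0.000315) and 1.07 in WT cells, the line in which it was called, with 0.69 in KO (adjusted p = 0.0555) and 0.71 in OE cells (adjusted p = 0.051). Without WT doxorubicin a the WT call was lost. With median-ratio scaling BECN1 was called in each line, with differences of 0.86 in WT, 0.7 in KO and 0.6 in OE cells. It was also called in each line with voom.

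WIPI1 (chr17:68420948-68457513), whose product binds the phosphoinositide that this kinase makes, had 16 and 14.8 TPM in WT, 15.3 and 12.3 TPM in KO and 14.4 and 10.1 TPM in OE doxorubicin libraries, against 32.7 and 28.7 TPM in WT, 29.7 and 20.7 TPM in KO and 24.0 and 18.3 TPM in OE control libraries. Its libraries did not overlap, and the difference was -0.83 ± 0.15 in the average (limma, adjusted p = 0.00041). It was called in WT (-0.95) and KO cells (-0.81), and in OE cells it was -0.74 with an adjusted p of 0.0516. The WT call was lost without WT control a or either WT doxorubicin library (limma, adjusted p up to 0.107), and the KO call without any 1 of the KO libraries (up to 0.199). Exons of WIPI1 share 24.3% of their bases with ARSG on the opposite strand. UVRAG (chr11:75815167-76143195), a Beclin 1 partner, had 3.62 and 3.2 TPM in WT, 4.14 and 3.64 TPM in KO and 3.80 and 2.83 TPM in OE doxorubicin libraries, against 5.79 and 5.96 TPM in WT, 6.76 and 6.70 TPM in KO and 5.32 and 5.03 TPM in OE control libraries. The separation was complete, and the averaged difference was -0.61 ± 0.14 (limma, adjusted p = 0.00227). ULK1, the kinase that starts autophagy, had 2.04 to 4.50 TPM with doxorubicin (median 2.82) and 4.30 to 6.38 TPM in control medium (median 5.73), so that the upper end of the doxorubicin libraries passed the lowest control. Its averaged difference was -0.70 ± 0.19 (limma, adjusted p = 0.00761). ATG2B, a lipid transfer protein of the growing membrane, had 3.26 to 5.06 and 2.17 to 5.28 TPM and was not called in the average (0.26, 95% interval -0.11 to 0.63). Nor was it called in a single line on the deposited scale. With median-ratio scaling ATG2B was called higher in OE cells (0.51) but not in WT (-0.03) or KO cells (0.05). The calls of ATG2B with voom were the same.

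Of the 2 transcription factor genes TFE3 fell and TFEB did not pass, and the difference between them was not itself tested. TFE3 had 5.09 to 11.8 TPM with doxorubicin (median 8.2) and 11.2 to 14.7 TPM in control medium (median 13.1), and it fell by 0.62 in the average (SE 0.19; limma, adjusted p = 0.0132). TFEB was low throughout, at 1.38 to 3.29 TPM with doxorubicin and 1.24 to 2.44 TPM in control medium, and was not called (0.17, 95% interval -0.25 to 0.59). Neither was called in a single line on the deposited scale. With median-ratio scaling TFE3 was called lower in WT (-1) and OE cells (-0.79) but not in KO cells (-0.38). The calls with voom were the same, and TFEB was called under neither setting. RNA levels do not report on the nuclear entry through which these factors are known to be regulated.

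Of the 6 lysosomal membrane genes LAMP2 and NPC1 fell, MCOLN1, SCARB2 and CD63 rose, and LAMP1 did not pass, in the average. LAMP2 (chrX:120427827-120469365), a major glycoprotein of the membrane and a receptor for chaperone-mediated autophagy, had 19.5 and 16.2 TPM in WT, 17.1 and 18.6 TPM in KO and 15.4 and 11.8 TPM in OE doxorubicin libraries, against 37.4 and 27.5 TPM in WT, 36.2 and 34.2 TPM in KO and 27.4 and 28.5 TPM in OE control libraries. The highest doxorubicin library was below the lowest control. The difference was -0.92 ± 0.13 in the average (limma, adjusted p = 7.87e-05), and -0.82, -0.94 and -1.0 in WT, KO and OE cells, each called. Leaving out 1 library ended the WT call (control a or doxorubicin b, adjusted p up to 0.166), the KO call (control b or doxorubicin a, up to 0.0684) and the OE call (control b, 0.0749). LAMP1, the other abundant glycoprotein, did not follow it: its libraries overlapped at 25.8 to 56.8 TPM with doxorubicin and 28.6 to 36.3 TPM in control medium, and the averaged difference was 0.32 (95% interval -0.05 to 0.68; limma, adjusted p = 0.128). The difference between LAMP1 and LAMP2 was not itself tested.

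Both Niemann-Pick C genes fell. NPC1 (chr18:23506184-23586898) encodes the membrane protein that moves cholesterol out of the lysosome, and it had 8.88 and 8.66 TPM in WT, 10.5 and 10.0 TPM in KO and 10.9 and 7.12 TPM in OE doxorubicin libraries, against 21.2 and 18.7 TPM in WT, 21.1 and 21.1 TPM in KO and 15.1 and 16.7 TPM in OE control libraries. NPC2 (chr14:74476192-74494177), the soluble protein that hands cholesterol to NPC1, had 24.0 and 30.6 TPM in WT, 16.5 and 20.5 TPM in KO and 16.1 and 15.4 TPM in OE doxorubicin libraries, against 78.2 and 66.6 TPM in WT, 53.1 and 70.2 TPM in KO and 45.9 and 52.5 TPM in OE control libraries. In neither gene did any doxorubicin library overlap a control library. NPC1 differed by -0.95 ± 0.13 in the average (limma, adjusted p = 7.78e-05) and by -1.10, -0.97 and -0.78 in WT, KO and OE cells. NPC2 differed by -1.55 ± 0.13 (limma, adjusted p = 1.58e-06) and by -1.38, -1.68 and -1.58. Both were called in each line. The NPC1 call was lost in KO cells without control b or doxorubicin a (limma, adjusted p up to 0.0685), and in OE cells without either control or doxorubicin b (up to 0.184). The NPC2 call was kept in each line under each of the 12 alternatives run there.

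The other membrane genes rose in the average. MCOLN1, the TRPML1 calcium channel with the 2 motifs shown above, was low, at 2.82 to 4.52 TPM with doxorubicin (median 3.2) and 1.32 to 2.62 TPM in control medium (median 1.44). Its groups did not overlap and the averaged difference was 0.78 ± 0.16 (limma, adjusted p = 0.00109); OE was the line in which it was called (0.86, adjusted p = 0.0392), with 0.74 in WT (0.0562) and 0.74 in KO cells (0.0658). That call was lost without either OE control or OE doxorubicin a. With median-ratio scaling MCOLN1 was called in each line, with differences of 0.59 in WT, 0.74 in KO and 0.79 in OE cells. It was also called in each line with voom. SCARB2, a membrane glycoprotein and sorting receptor of the lysosome, had 27.8 to 42.8 and 22.2 to 36.2 TPM and rose by 0.44 ± 0.15 (limma, adjusted p = 0.0234). CD63, a tetraspanin of late endosomes and exosomes, had 76.5 to 114 and 62.2 to 88.3 TPM and rose by 0.35 ± 0.12 (limma, adjusted p = 0.0247). The CD63 call was lost under 8 of 19 alternatives, median-ratio scaling and the read-based test among them, and the SCARB2 call when 1 of 4 libraries was left out (WT doxorubicin a, KO control b, OE control b or OE doxorubicin a).

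Of the 6 proteases CTSD rose, CTSB and CTSL fell, and CTSA, CTSZ and TPP1 did not pass, in the average. CTSB (chr8:11842524-11869448), the cysteine protease cathepsin B, had 58.2 and 46.4 TPM in WT, 67.7 and 84.0 TPM in KO and 65.8 and 61.6 TPM in OE doxorubicin libraries, against 79.8 and 86.5 TPM in WT, 121 and 115 TPM in KO and 119 and 103 TPM in OE control libraries. The treatments were apart within each line, although the higher KO doxorubicin library exceeded a WT control. CTSB differed by -0.70 ± 0.11 in the average (limma, adjusted p = 0.000229) and by -0.67, -0.64 and -0.79 in WT, KO and OE cells, each called. The KO call was lost under 7 of 12 alternatives, 3 of which left out a library (either control or doxorubicin a), with adjusted p-values of up to 0.235. The WT call was lost without either WT control or WT doxorubicin b (up to 0.161), and the OE call without either OE control (up to 0.103). CTSL, another cysteine cathepsin, had 43.0 to 63.6 TPM with doxorubicin and 44.1 to 78.0 TPM in control medium. It fell in the average only, without a call in a single line on the deposited scale. In WT cells CTSL differed by 0.07 (limma, adjusted p = 0.82), so a fall is not shown there. With median-ratio scaling CTSL was called lower in KO (-0.54) and OE cells (-0.62) but not in WT cells (-0.14). The calls of CTSL with voom were the same. Its fall by 0.33 (SE 0.13; limma, adjusted p = 0.0398) was lost under 10 of 19 alternatives, all of which left out a library: either library of WT control, WT doxorubicin, KO control or OE control, or replicate b of KO or OE doxorubicin. CTSD, the aspartic protease, had 43.0 to 97.7 TPM with doxorubicin (median 76.2) and 23.4 to 55.9 TPM in control medium (median 49.5), overlapping across lines. It rose by 0.73 ± 0.18 (limma, adjusted p = 0.00425), but 41.7% of its exon bases are shared with the same-strand gene AC068580.4, so the reads of both cannot be told apart there. The averaged differences of the 3 that did not pass were -0.13 for CTSA, -0.38 for CTSZ and 0.17 for TPP1.

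Glycosidases fell or did not pass. GUSB (chr7:65960684-65982314), beta-glucuronidase, had 8.69 and 7.05 TPM in WT, 8.14 and 6.67 TPM in KO and 8.62 and 5.13 TPM in OE doxorubicin libraries, against 14.5 and 13 TPM in WT, 13.7 and 12.5 TPM in KO and 12.8 and 10.8 TPM in OE control libraries. No library overlapped, and the difference was -0.74 ± 0.15 in the average (limma, adjusted p = 0.00114). The WT call (-0.74, adjusted p = 0.0472) was lost under 5 of 12 alternatives, the 4 that left out a WT library and the one without a filter on low values. NEU1, the sialidase, had 2.72 to 4.14 and 3.94 to 5.95 TPM and fell by 0.47 (SE 0.14; limma, adjusted p = 0.0116). GLB1, the beta-galactosidase used as a marker of senescent cells, had 12.5 to 17.2 TPM with doxorubicin and 11.7 to 14.9 TPM in control medium. Its averaged difference was 0.03, with a 95% interval of -0.24 to 0.30. HEXA, a hexosaminidase subunit, and GLA, alpha-galactosidase A, had averaged differences of 0.18 and 0.23 and were not called.

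Of the 4 genes grouped under lipid handling NPC2 fell, as given above, and the others were higher or did not pass. NPC1, which also fell, is counted with the membrane genes. ASAH1 (chr8:18055992-18084998), acid ceramidase, had 13.7 and 11.5 TPM in WT, 13.5 and 11.6 TPM in KO and 12.1 and 10.3 TPM in OE doxorubicin libraries, against 7.78 and 8.69 TPM in WT, 9.93 and 9.96 TPM in KO and 7.52 and 7.29 TPM in OE control libraries. These ranges did not meet, and ASAH1 rose by 0.47 ± 0.13 in the average (limma, adjusted p = 0.00742) without a call in a single line on the deposited scale. With voom it was called in OE cells (0.48), but not with median-ratio scaling. LIPA, the acid lipase that frees cholesterol from its esters, had 26.2 to 34.3 and 19.1 to 30.6 TPM and rose by 0.40 ± 0.14 (limma, adjusted p = 0.0242); leaving out WT control a, WT doxorubicin b, KO control b, OE control b or OE doxorubicin a ended that call. PSAP, the precursor of the saposins, was the most abundant member at 438 to 690 TPM with doxorubicin and 476 to 667 TPM in control medium. Its averaged difference of -0.10 had a 95% interval of -0.34 to 0.15.

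Of the 6 V-ATPase members 2 rose, 1 fell and 3 did not pass in the average. The 10 further subunits, given below, had 5 higher and 0 lower. ATP6V0D1 (chr16:67438014-67481237), a V0 subunit, had 14.6 and 12.3 TPM in WT, 18.0 and 13.1 TPM in KO and 16.2 and 8.54 TPM in OE doxorubicin libraries, against 6.68 and 4.30 TPM in WT, 7.98 and 7.60 TPM in KO and 8.21 and 6.39 TPM in OE control libraries. The groups were apart, by a small margin for OE doxorubicin replicate b. The difference was 0.90 ± 0.18 in the average (limma, adjusted p = 0.00093) and 1.17 in WT cells (adjusted p = 0.0132), with 0.90 in KO (0.0509) and 0.63 in OE cells (0.151). The WT call was lost without control b or doxorubicin a (limma, adjusted p up to 0.0949). ATP6V1H (chr8:53715557-53843558), a regulatory V1 subunit, had 19.1 and 17.5 TPM in WT, 21.9 and 14.7 TPM in KO and 20.4 and 12.5 TPM in OE doxorubicin libraries, against 9.85 and 7.66 TPM in WT, 14.7 and 11.6 TPM in KO and 11.3 and 10.2 TPM in OE control libraries. WT and OE libraries were apart by treatment, while the lower KO doxorubicin library stood level with a KO control. It rose by 0.65 ± 0.16 in the average (limma, adjusted p = 0.00372) and by 0.99 in WT cells (adjusted p = 0.0169), a WT call that was lost when any 1 of the 4 WT libraries was left out.

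ATP6V1B2 (chr8:20197367-20226819), a V1 subunit of the catalytic ring, fell. It had 13 and 11.1 TPM in WT, 12.6 and 13.2 TPM in KO and 13 and 10.1 TPM in OE doxorubicin libraries, against 19.2 and 14.8 TPM in WT, 19.8 and 24.0 TPM in KO and 16.1 and 18.8 TPM in OE control libraries. The treatments did not overlap, and the difference was -0.58 ± 0.13 in the average (limma, adjusted p = 0.0027) and -0.71 in KO cells (adjusted p = 0.0413), where the call was lost under 5 of 12 alternatives, the 4 that left out a KO library and the fit of the KO groups alone. ATP6V1A, the catalytic V1 subunit, had 50.6 to 92.9 and 46.4 to 71.2 TPM. ATP6V0A1, a membrane subunit, had 6.99 to 11.2 and 9.62 to 12.9 TPM, and ATP6AP1, an accessory protein, 9.63 to 16 and 12.8 to 18.4 TPM. None of the 3 was called, with averaged differences of 0.27, -0.20 and -0.11.

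A further 128 genes of these pathways, from lists by function, gave a wider view of the same system. Of these 125 were listed and 124 were tested, and 45 rose, 24 fell and 55 did not pass in the average over WT, KO and OE cells. The share called was 55.6%, against 58.0% of all genes (32.2% higher, 25.9% lower), so it was near the background. Hydrolases and their cofactors had 13 higher and 3 lower of 28 tested (57.1% called, against 58.0% of all genes, of which 32.2% higher and 25.9% lower), with a median of 0.32 against 0.09 for all genes. Alpha-glucosidase (GAA) averaged 71.7 ± 12.6 TPM with doxorubicin and 30.0 ± 6.55 TPM in control medium (SD, n = 6 each), a difference of 1.24 (limma, adjusted p = 7.03e-05), and alpha-fucosidase (FUCA1) 86.2 ± 22.6 and 34.1 ± 6.07 TPM. Cathepsin K (CTSK) was lower, at 2.07 ± 0.496 and 7.88 ± 1.57 TPM, as was acid sphingomyelinase (SMPD1), at 2.73 ± 0.493 and 4.58 ± 1.32 TPM.

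Membrane and sorting genes had 7 higher and 1 lower of 13 (61.5% called, against 58.0% of all genes, of which 32.2% higher and 25.9% lower). They included NAGPA, which uncovers the mannose 6-phosphate tag (1.37), CLN3 (0.98) and the tag's receptor IGF2R (0.94), with LAPTM4A lower (-0.62). Of 10 further V-ATPase subunits 5 rose and 0 fell (50% called, against 58.0% of all genes, of which 32.2% higher and 25.9% lower). Their median was 0.28, against 0.09 for all genes. ATP6V0E1 led at 92.3 ± 5.54 TPM with doxorubicin and 40.9 ± 4.60 TPM in control medium. ATP6V1G1 and ATP6V1E1 differed by 0.84 and 0.69. Regulators of TFE factors and mTORC1 had 10 higher and 6 lower of 25 (64% called, against 58.0% of all genes, of which 32.2% higher and 25.9% lower). The Ragulator subunits LAMTOR4 (1.26) and LAMTOR1 (1.12) and the p53 target SESN1 (1.48) rose, while SESN3 (-1.57), RRAGD (-1.13) and RHEB (-0.74) fell.

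The autophagy core list had 3 higher and 10 lower of 26 (50% called, against 58.0% of all genes, of which 32.2% higher and 25.9% lower; median -0.11, against 0.09 for all genes). WDR45B, a relative of WIPI1, averaged 71.8 ± 7.54 TPM with doxorubicin and 146 ± 25.4 TPM in control medium (SD, n = 6 each). ATG101, a subunit of the ULK1 complex, averaged 25.6 ± 2.92 and 53.8 ± 9.86 TPM, and ATG2A 5.02 ± 0.579 and 11.1 ± 2.49 TPM. Those that rose were ATG9A (0.58), WDR45 (0.47) and AMBRA1 (0.34). Receptors and fusion genes had 7 higher and 4 lower of 22 (50% called, against 58.0% of all genes, of which 32.2% higher and 25.9% lower), near the background. TP53INP1, a p53 target that binds ATG8 proteins, averaged 84.2 ± 28.7 and 19.2 ± 3.83 TPM (2.02; limma, adjusted p = 9.7e-06), and the fusion genes VPS33A (1.22) and STX17 (1.04) rose. The mitophagy receptor BNIP3L (-1.17) and the tethering factor EPG5 (-0.88) fell.

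Knockout or over-expression of SPARCLE changed no member past the threshold. Among the 41 genes, limma called 0 in KO against WT in control medium (0.0918% of all genes called), 0 in OE against WT in control medium (0.118%), 0 in KO against WT with doxorubicin (0.295%) and 0 in OE against WT with doxorubicin (0.315%). The KO by doxorubicin and OE by doxorubicin interactions also called 0 (0.00655% of all genes each). At an unadjusted p under 0.05 the members numbered 2, 2, 2 and 1 in the 4 comparisons, in the order given, and 0 in each interaction, against 7.14, 5.03, 3.43 and 4.83% of all genes and 1.27 and 0.983% in the interactions. The read-based test (voom and limma on recovered reads) also called 0 members in all 6. The median 95% interval reached 0.54 log2 units to either side of a member's difference, and 0.76 for the interactions. The KO and OE comparisons share the WT libraries of each medium.

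**Figure D4:**
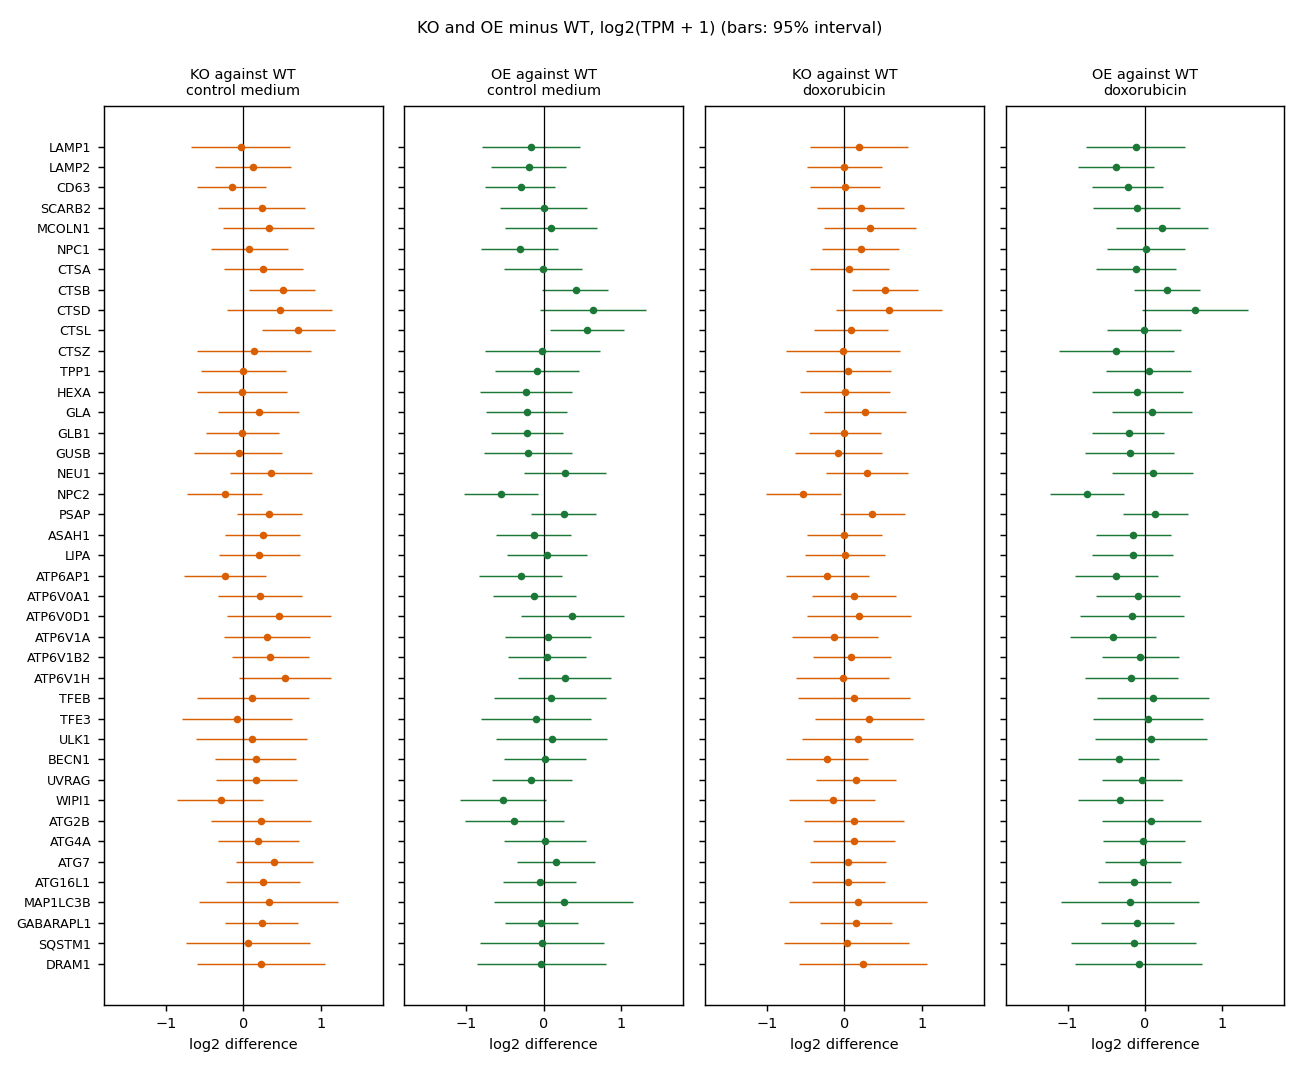
Difference of each member between KO or OE and WT (x axis, log2(TPM + 1) units; bars are 95% intervals) in control medium and with doxorubicin. The widest differences are those of NPC2 at -0.75 in OE with doxorubicin and CTSL at 0.71 in KO control cells, and none of the 41 passed the test in any panel.

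The members with an unadjusted p under 0.05 were CTSL, CTSB and NPC2. CTSL had 77.1 and 78.0 TPM in KO control and 72.5 and 66.4 TPM in OE control libraries, against 44.1 and 49.9 TPM in WT control libraries. Both manipulated lines were above WT there, by 0.71 in KO (95% interval 0.24 to 1.19; limma, adjusted p = 0.499) and by 0.56 in OE cells (0.08 to 1.03; adjusted p = 0.894). With doxorubicin the CTSL libraries overlapped, at 63.6 and 43.0 TPM in KO and 54.8 and 43.6 TPM in OE, against 51.8 and 47.0 TPM in WT libraries. Its interactions were -0.63 in KO and -0.57 in OE cells, with intervals that reached 0.04 and 0.10. CTSB, by the values above, was higher in KO than in WT cells by 0.51 in control medium and 0.53 with doxorubicin (limma, adjusted p = 0.63 and 0.98). NPC2 was lower in OE than in WT cells with doxorubicin by the values above, a difference of -0.75 (95% interval -1.23 to -0.27; limma, adjusted p = 0.437), and by -0.55 in control medium (adjusted p = 0.912). In KO cells NPC2 differed from WT by -0.53 with doxorubicin and by -0.24 in control medium. For DRAM1 the interaction was 0.01 in KO (95% interval -1.16 to 1.18) and -0.05 in OE cells (-1.23 to 1.12), intervals too wide to show that the 3 lines responded alike.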

How the data were processed

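The deposited table holds log2 TPM per gene (per the file headers), from HISAT2 2.0.4, SAMtools 1.7, featureCounts, R 3.3.3 and edgeR 3.12.1 on hg38, per the submitters' processing notes; strand setting, annotation and filters are not given in the sources used here. Groups come from the sample titles. With GENCODE v29 exon lengths, 15182 genes (91.7% of 16564) gave whole reads plus a small prior within 0.05 reads, and 1494 more did so with a searched length (SCARB2, TPP1, GLA and ATP6V0A1 among them). Tests used log2(TPM + 1), genes that reached 1 TPM in 2 or more libraries, and 1 limma 3.58.1 model (R 4.3.3) of 6 group means with a trended prior (6 residual degrees of freedom), Benjamini-Hochberg adjusted over 15256 genes and called under 0.05. The procedure was tested on simulated libraries drawn independently of each other, so that test does not cover deviations shared between libraries. Values in every library are given for members called in a comparison with libraries that do not overlap and 5 TPM or more as the mean of a compared group; of the other pathway lists, up to 3 genes each way with the smallest adjusted p are named, except where a gene is not reported here. Members and lists were chosen with earlier results of these data known. Alternatives were a pseudocount of 0.1, no filter, a mean TPM of at least 5, median-ratio scaling, leaving out 332 small RNA genes, the replicate letter as a block, voom on recovered reads, only the groups compared, and each library left out.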

Additional observations from a re-analysis of the deposited data

How the results depend on the processing

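No called member changed direction under any alternative, and the 6 comparisons between lines, interactions included, called 0 members under each of them. The averaged doxorubicin count of 26 stayed within 22 to 29, and 22 of the 26 calls were kept throughout; median-ratio scaling added CTSZ, ATP6V0A1, ATG4A and ATG16L1 as lower and lost CD63. Counts in single lines depended on the setting. In WT cells 14 became 6 to 9 when 1 library was left out (6 without control a, 9 without control b, 7 without either doxorubicin library), and 4 calls were kept throughout (DRAM1, NPC1, NPC2 and ATG7). In KO cells 10 became 16 with median-ratio scaling, 21 without small RNA genes, 17 with voom and 2 to 9 with 1 library left out (2 without control b, 3 without doxorubicin a); DRAM1 and NPC2 were kept. In OE cells 9 became 21, 19 and 22 under those settings and 3 to 11 with 1 library left out (3 without control b, 5 without control a); DRAM1, NPC2 and GABARAPL1 were kept. Fitting only the groups compared ended the OE calls of NPC1, ATG7 and MCOLN1 and the KO calls of WIPI1, CTSB and ATP6V1B2. Under both median-ratio scaling and voom, BECN1, MCOLN1, ATG7, SQSTM1, WIPI1, GUSB, ATP6V1B2, UVRAG and ULK1 were called in each line. The cause of these shifts was not tested. For no alternative, the replicate block included, was the share of all genes called counted. The member counts under them therefore have no background beside them. A group left with 1 library was assumed to vary like the others.

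With the replicate block the members called were 19 in WT, 16 in KO, 13 in OE cells and 28 in the average, and 0 between lines. The letters were not treated as pairing samples, since same-lettered deviations correlated between -0.39 and 0.81 over 15 pairs of groups and exceeded 0.1 in 7. The highest values were 0.81 between KO and OE doxorubicin and 0.5 between KO and OE control. WT control gave -0.39 with KO control and -0.35 with OE control. KO and OE libraries of the same letter and medium thus deviated alike, and the main model does not allow for this. Calls in KO and in OE cells are therefore not shown to be independent of each other. The averaged comparison counts these libraries as independent too, so its standard errors and adjusted p-values rest on an assumption that is not shown to hold. With 2 libraries a group, a difference that misses the threshold is not shown to be absent.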
